A study of Mus musculus with 26 samples.

Results

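The mammary luminal lineage factors and hormone receptors described here are 10 of the 37310 genes counted in every library: Elf5, Ehf, Elf3, Spdef, Gata3, Foxa1, Esr1, Pgr, Prlr and Stat5a. They were chosen by name for their known place in luminal mammary cells, with earlier results of these data known. Each was matched to a single gene ID, and all 10 passed the filter on low counts in every fit. On GRCm38 they lie at chr2:103411688-103450989 (Elf5), chr2:103263433-103303278 (Ehf, the next ETS gene to Elf5), chr1:135253575-135258568 (Elf3), chr17:27714352-27728955 (Spdef), chr2:9857078-9890034 (Gata3), chr12:57540628-57546916 (Foxa1), chr10:4611593-5005614 (Esr1), chr9:8899833-8968611 (Pgr), chr15:10177238-10349180 (Prlr) and chr11:100859351-100885169 (Stat5a), all protein-coding; the authors' own build was mm9.

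Polyadenylated RNA was sequenced from mammary tumors and tumor organoids of C57BL/6 mice carrying MMTV-PyMT, a transgene in which the mouse mammary tumor virus promoter drives the polyoma middle T oncogene in mammary epithelium. The question was what changes when Malat1, a nuclear long noncoding RNA, is depleted with antisense oligonucleotides (ASOs). There were 4 organoid cultures each with Malat1 ASO1, Malat1 ASO2, the control oligonucleotide scASO and Mock, all grown in Matrigel with FGF2; the 3 oligonucleotides were given at 500 nM for 6 days and renewed on day 3. Tumor-bearing mice received 125 mg/kg per week of Malat1 ASO1 (3 tumors), Malat1 ASO2 (4 tumors) or scASO (3 tumors) under the skin for several weeks. All groups carry the oncogene, so no normal gland is compared, and the labels do not say whether replicates came from separate animals. The p-values therefore cover no more than the spread of these samples, which may be technical. In whole tumors, fewer cells of a type and less RNA per cell cannot be told apart.

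Luminal cells line the mammary ducts and alveoli. Elf5 and its ETS relatives, together with Gata3, direct and maintain luminal and alveolar differentiation, while Foxa1 opens chromatin for the estrogen receptor, encoded by Esr1, whose classic target is the progesterone receptor gene Pgr. Prolactin binds the receptor encoded by Prlr, which through the kinase JAK2 activates STAT5A, a driver of the milk protein genes.

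Promoters of 3 of the genes are shown first, as RefSeq gives them on GRCm38.p6, 5′ to 3′ on the strand of transcription, from 250 bases before to 50 bases after an annotated start. Spdef is shown because it differed most between organoids and tumors. Foxa1 and Prlr are shown because their levels ran together across tumors, though Gata3 with Stat5a did so more closely (Pearson's r of 0.936 against 0.805). The Foxa1 promoter and promoter 2 of Prlr also hold an element that FOXA factors can bind, while promoters 1 and 3 of Prlr do not. Whether this element bears on the levels of either gene was not tested. Capitals mark a FOXA element (TGTTTAC, on either strand) or a STAT5 element (TTCNNNGAA).
Spdef, chr17:27728902-27729201, minus strand: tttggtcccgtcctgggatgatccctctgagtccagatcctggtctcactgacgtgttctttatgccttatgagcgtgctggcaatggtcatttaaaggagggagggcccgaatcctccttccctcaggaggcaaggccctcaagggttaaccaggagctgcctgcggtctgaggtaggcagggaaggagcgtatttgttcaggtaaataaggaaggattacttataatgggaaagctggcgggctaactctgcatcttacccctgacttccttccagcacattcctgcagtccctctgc
Foxa1, chr12:57546062-57546361, minus strand: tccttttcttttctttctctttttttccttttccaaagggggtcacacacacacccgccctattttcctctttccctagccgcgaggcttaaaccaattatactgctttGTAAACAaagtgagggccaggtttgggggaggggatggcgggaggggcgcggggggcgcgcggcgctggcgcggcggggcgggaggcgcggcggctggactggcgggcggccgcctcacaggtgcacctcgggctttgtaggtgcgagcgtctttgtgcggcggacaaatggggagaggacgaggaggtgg
Prlr, promoter 2, chr15:10223656-10223955, plus strand: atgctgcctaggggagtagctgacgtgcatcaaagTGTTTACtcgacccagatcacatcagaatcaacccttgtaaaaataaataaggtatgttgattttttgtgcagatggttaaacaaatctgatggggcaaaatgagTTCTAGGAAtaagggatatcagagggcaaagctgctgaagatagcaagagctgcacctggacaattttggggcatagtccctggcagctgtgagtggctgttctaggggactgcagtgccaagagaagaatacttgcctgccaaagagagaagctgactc

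RefSeq held 14 promoters for 9 of the 10 genes. Among them, the FOXA element lay in 2, the Foxa1 promoter at bases 110 to 116 and the Prlr promoter 2 at bases 36 to 42, and in 3.65% of all 32851 promoters. The STAT5 element lay in 2, the Prlr promoter 2 at bases 141 to 149 and an Esr1 promoter, and in 8.3% of all. None of the 14 held a GATA element (AGATAA, in 11.2% of all promoters), an ETS element (CGGAAG, in 16.9%) or the palindromic estrogen response element (in 0.07%) on either strand. The FOXA and STAT5 elements do not overlap each other in the Prlr promoter 2. These are letter matches in short windows.

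Reads assigned to genes numbered 23973533 to 65146030 in organoid libraries and 9939520 to 51363552 in tumor libraries. The label of each group was checked on Malat1 in CPM, a gene's share of all reads in genes on a per-million scale, scaled with TMM size factors over all 26 libraries. In organoids, the libraries with ASO1 held 186, 114, 86.9 and 124 CPM and those with ASO2 held 1485, 219, 95.6 and 307 CPM, against 836, 119, 781 and 1191 CPM with scASO and 769, 1578, 713 and 1321 CPM in Mock. The library labelled ASO2 replicate 1 was as high as the controls and the library labelled scASO replicate 2 as low as the ASO libraries, so results that rest on them are given with and without both. In tumors, Malat1 stood at 824, 780 and 401 CPM with ASO1 and at 594, 913, 639 and 381 CPM with ASO2, against 1569, 1913 and 847 CPM with scASO. The tumor log2 fold changes were -1.10 ± 0.40 (SE) for ASO1 and -1.18 ± 0.37 for ASO2, with Benjamini-Hochberg adjusted p of 0.53 and 0.89 by edgeR (quasi-likelihood), so neither was called. In organoids the ASO1 estimate over Mock was -3.12 ± 0.79 (adjusted p of 1 by edgeR), and -3.29 ± 0.70 (adjusted p of 0.0256) with the replicate number as a block. The ASO2 estimate over Mock was -1.09 ± 0.73, and -1.66 ± 0.70 (adjusted p of 0.26 by edgeR) with the block. Over scASO the blocked estimates were -2.53 ± 0.69 for ASO1 and -0.90 ± 0.69 for ASO2 (adjusted p of 0.68 and 0.46 by edgeR). Lower Malat1 with ASO2 was thus not called in organoids.

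Per kilobase of exon, the order of the 10 genes by median was led in both systems by Ehf and Elf5, ETS factors of luminal epithelium, and then Gata3. Ehf had a median of 54.9 CPM per kb in organoids and 129 in tumors, Elf5 38.5 in organoids and 79.3 in tumors, and Gata3 32.3 in organoids and 39.4 in tumors. At the other end, Esr1 had a median of 0.462 CPM per kb in organoids and 1.12 in tumors, and Pgr 0.213 in organoids and 0.534 in tumors. Spdef changed place in this order. It was 20.1 CPM per kb in tumors, next after Gata3, while in organoids it was 1.64 CPM per kb, just above Esr1. Neighbours in the order overlapped in their ranges over libraries, except Gata3 and Prlr in organoids (24.9 to 49.6 against 2.54 to 16.1 CPM per kb) and Prlr and Esr1 in tumors (6.26 to 20.2 against 0.521 to 2.53 CPM per kb).

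**Figure D1:**
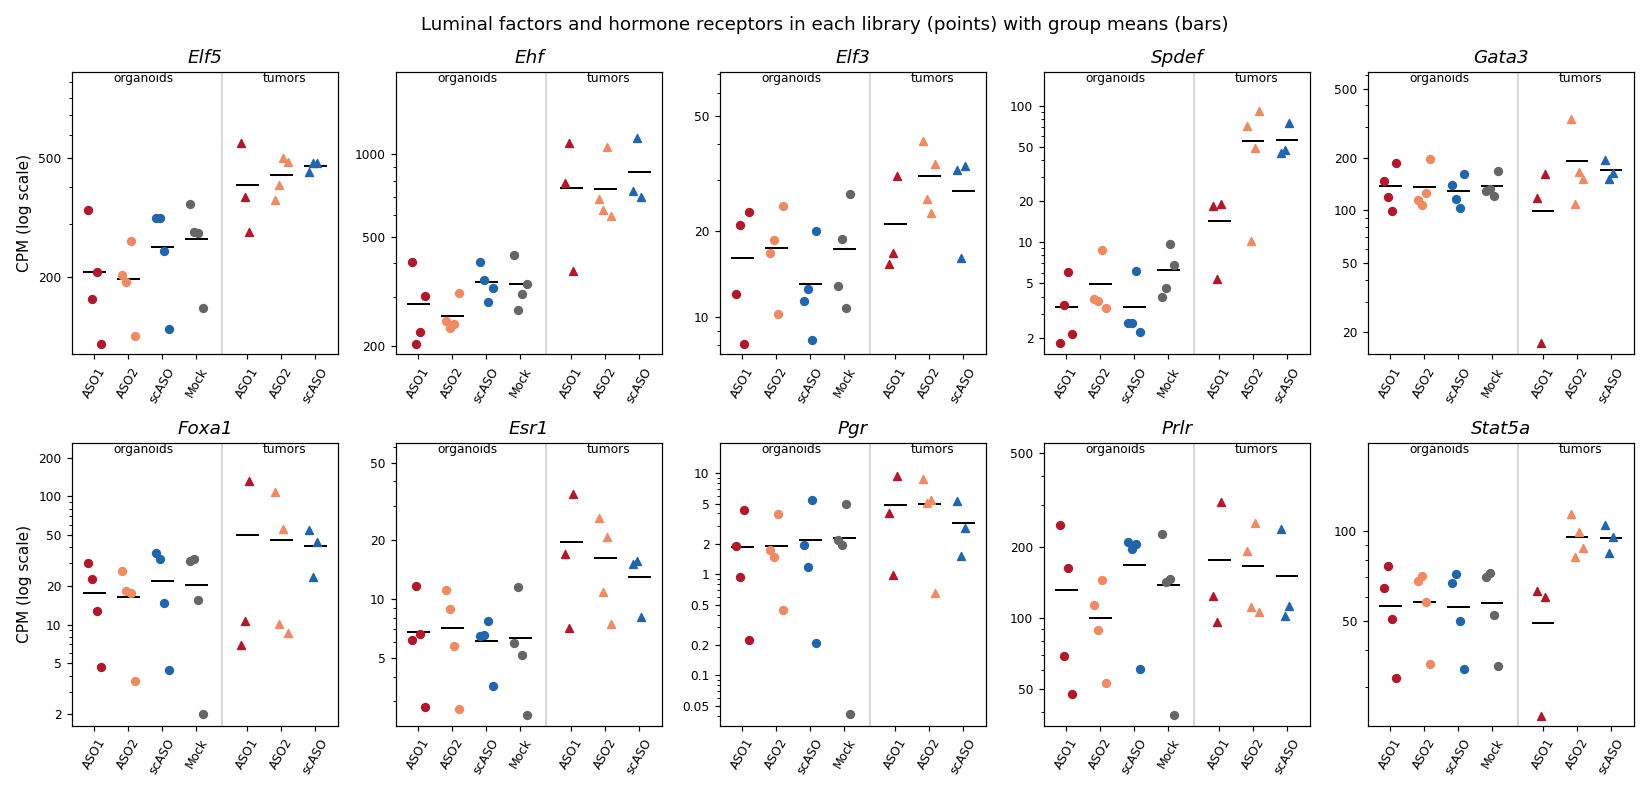
CPM (log scale) of the 10 genes in each of the 26 libraries, with organoid groups on the left and tumor groups on the right; points are libraries and bars are arithmetic group means. Spdef lies between 1.83 and 9.71 CPM in organoids and between 5.34 and 91.1 CPM in tumors, and Ehf between 203 and 429 CPM in organoids and between 375 and 1146 CPM in tumors.

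Organoids were set against tumors in a fit over all 26 libraries, with each group weighted equally within its system. This fit takes the 16 organoid libraries as separate samples, although those with the same replicate number deviated together, so its p-values may be too small. Summed by number instead, an alternative added after seeing the data, 4 organoid samples against 10 tumors gave 4 of the 10 called, beside 43.7% of all genes. There Spdef (-3.13 ± 0.56, adjusted p of 0.000689 by edgeR), Ehf (-1.37 ± 0.27, 0.00129), Elf5 (-0.97 ± 0.22, 0.003) and Esr1 (-1.25 ± 0.45, 0.0372) were called lower, and Elf3 lost its call (-0.69 ± 0.30, adjusted p of 0.0767). The values that follow are from the 26 libraries. Over the 26 libraries, Spdef, Ehf, Elf5, Esr1 and Elf3 were lower in organoids, and none of the 10 was higher: 5 of 10 were called, beside 58.3% of all 18695 genes tested, of which 29.8% were lower and 28.5% higher. The median log2 fold change of the 10 was -1.06, beside -0.03 for all genes. No gene of the 10 was without overlap between the systems, beside 13.2% of all genes.

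Among the ETS factors, Spdef differed most. SPDEF, known for goblet and other secretory epithelial cells and expressed in luminal mammary cells, had a lowest, median and highest level of 1.83, 3.79 and 9.71 CPM in organoids and of 5.34, 46.4 and 91.1 CPM in tumors. A single tumor, ASO1 replicate 2, lay within the organoid range. Its log2 fold change was -3.21 ± 0.34 (SE), or 10.8% of the tumor level, with an adjusted p of 1.08e-07 in edgeR's quasi-likelihood test.

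Ehf, an epithelial ETS factor, had 203, 306 and 429 CPM (lowest, median, highest) in organoids and 375, 717 and 1146 CPM in tumors. The tumor ASO1 replicate 3 alone reached down into the organoid range. The log2 fold change was -1.42 ± 0.17, with an adjusted p of 4.03e-07 by the edgeR test. Elf5, which drives the alveolar fate of luminal progenitors, had 119, 226 and 350 CPM in organoids and 283, 466 and 564 CPM in tumors. It was lower by a log2 fold change of -1.01 ± 0.19 (adjusted p of 0.000108 by edgeR), with the ranges overlapping between 283 and 350 CPM. Elf3, a further epithelial ETS factor, had 8.07, 14.8 and 26.9 CPM in organoids and 15.4, 28.4 and 41.1 CPM in tumors. Its log2 fold change was the smallest of those called, -0.76 ± 0.23 (adjusted p of 0.00659 by edgeR), and it was the one lost with libraries summed by number.

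The steroid receptor genes were the least abundant of the 10 per kilobase of exon, though in CPM the organoid median of Spdef was below that of Esr1. Esr1 had 2.55, 6.31 and 11.6 CPM in organoids and 7.11, 15.3 and 34.5 CPM in tumors, a log2 fold change of -1.27 ± 0.32 (adjusted p of 0.00199 by edgeR). Pgr had 0.0418, 1.82 and 5.44 CPM in organoids and 0.656, 4.57 and 9.43 CPM in tumors. Its estimate of -1.11 ± 0.61 did not pass (adjusted p of 0.12), with a 95% interval from -2.30 to 0.08, and rested on 1 to 246 reads per organoid library and 7 to 325 per tumor.

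Foxa1, the pioneer factor, spread widely in both systems, with 2.01, 17.9 and 36.1 CPM in organoids and 6.98, 33.9 and 132 CPM in tumors. Its estimate of -1.29 ± 0.57 missed the threshold (adjusted p of 0.056), and leaving out the tumor ASO1 replicate 3 took it to -0.46. Stat5a had 32.2, 61.1 and 76.4 CPM in organoids and 24.1, 86.2 and 114 CPM in tumors, with an estimate of -0.43 ± 0.19 on the threshold (adjusted p of 0.0505). Prlr and Gata3 had estimates near 0, at -0.33 ± 0.33 and -0.13 ± 0.25. Gata3, the luminal fate factor, ranged from 99.1 to 197 CPM in organoids and from 17.4 to 336 CPM in tumors. Its annotation overlaps 4930412O13Rik on the opposite strand, which held 3.97 to 16.4 CPM in organoids and 0.964 to 14.0 CPM in tumors. It also overlaps 9230102O04Rik on the same strand (0.564 to 2.25 CPM in organoids and 0.293 to 2.35 CPM in tumors). A further overlap is with the antisense gene Gm13256, at no more than 0.497 CPM in organoids and 0.315 CPM in tumors.

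**Figure D2:**
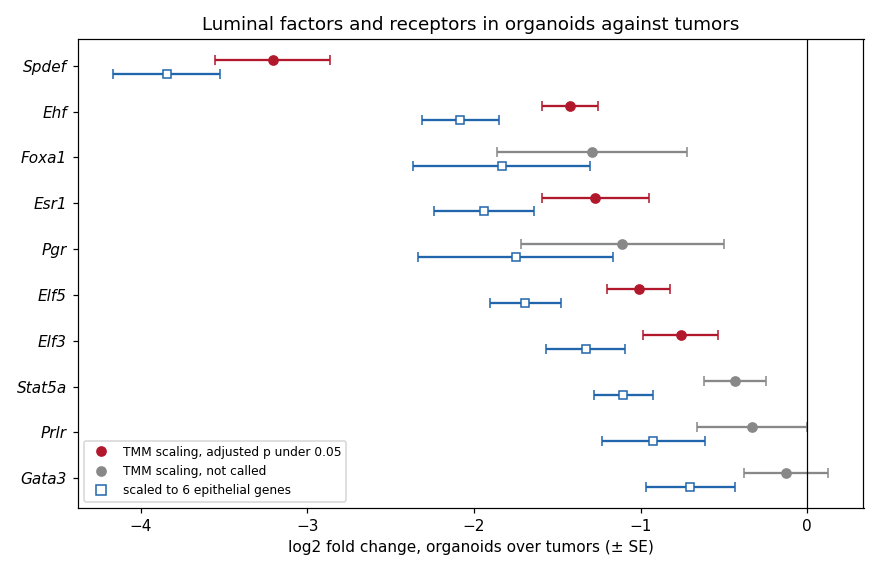
Log2 fold change of organoids over tumors with its standard error for each gene, scaled with TMM (circles, red where called) and scaled to 6 epithelial genes (blue squares). The 5 called genes run from -3.21 for Spdef to -0.76 for Elf3, and all 10 estimates are more negative under the epithelial scaling.

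Stromal and immune markers were lower in the cultures. All 8 T lymphocyte markers and all 8 endothelial markers were called lower in organoids, and 7 of 8 macrophage and leukocyte markers. Their summed levels in organoids and tumors were 1.38 to 3.16 and 8.08 to 21.8 CPM for T cells, 5.66 to 30.2 and 31.7 to 134 CPM for endothelium, and 15.1 to 82.1 and 105 to 360 CPM for macrophages and leukocytes. Cd8a was at 0 in all 16 organoid libraries. Of 8 fibroblast markers 4 were lower and 1 higher, and of 8 adipocyte markers 5 were lower; summed, fibroblast markers held 60.9 to 362 CPM in organoids and 264 to 2365 CPM in tumors, and adipocyte markers 11.8 to 124 CPM and 14.2 to 880 CPM. The part of these cells in the differences above was not tested.

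Epithelial genes moved the other way. Of 12 general epithelial markers 6 rose and 1 fell in organoids, with sums of 6257 to 11750 CPM in organoids and 3790 to 6633 CPM in tumors; Cdh1 (0.64 ± 0.10), Epcam (1.02 ± 0.17), Krt7 (1.59 ± 0.29) and Krt8 (0.71 ± 0.15) had the smallest p. When libraries were scaled to 6 epithelial genes, all 10 luminal factors and receptors were called lower, beside 69.9% of all genes, with Spdef at -3.85 ± 0.32. That scaling moved the median of all genes from -0.03 to -0.67 and the calls from 5331 higher and 5570 lower to 1805 higher and 11255 lower. Of 8 basal markers 3 rose (Krt14 by 4.34 ± 0.31, Krt5 by 4.05 ± 0.45 and Trp63 by 2.004 ± 0.30) and 4 fell, among them the contractile gene Mylk (-1.87 ± 0.41).

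Genes around the 10 in the same pathways were counted in the same comparison of organoids with tumors. Of 12 genes for milk proteins and other products of secretory luminal cells, known as targets of STAT5 or ELF5, 8 fell and 1 rose, with a median log2 fold change of -2.03. The milk genes Csn1s2a (-5.86 ± 0.70), Csn2 (-5.74 ± 0.69), Wap (-4.21 ± 0.44) and Btn1a1 (-3.29 ± 0.45) fell, while the casein gene Csn1s1, named here after its values were seen, rose (1.46 ± 0.53). Csn2 ranged from 0 to 0.370 CPM in organoids and from 0.526 to 1201 CPM in tumors. In the prolactin, JAK2 and STAT5 pathway 6 of 14 rose and 2 fell: Stat3, the STAT of mammary involution, rose by 1.58 ± 0.19, the feedback inhibitor Socs3 by 1.66 ± 0.26 and the phosphatase gene Ptpn11 by 0.44 ± 0.08, whereas Cish, a classic STAT5 target, fell (-1.28 ± 0.25).

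Of 13 estrogen- and progesterone-responsive genes tested, 4 rose and 4 fell. Ccnd1, the cyclin D1 gene (2.198 ± 0.22), Rara, a retinoic acid receptor gene (1.198 ± 0.15), the epidermal growth factor receptor ligand Areg (3.42 ± 0.54) and Id4 (2.18 ± 0.38) rose. Calca (-6.93 ± 1.16), Wnt4 (-2.27 ± 0.675), Agr2 (-2.06 ± 0.81) and Fkbp5 (-0.66 ± 0.25), named here after their values were seen, fell. Esr1 was lower in the same organoids. Among 14 other steroid receptors and coregulators 6 rose and 3 fell, with the coactivator Ncoa2 (1.13 ± 0.12) and Pgrmc2 (0.57 ± 0.09) higher and the estrogen receptor beta gene Esr2 (-2.19 ± 0.44) and the mineralocorticoid receptor gene Nr3c2 (-1.17 ± 0.21) lower.

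Of 19 other ETS factors tested, 9 rose and 4 fell. Etv4 (2.25 ± 0.21) and Elf4 (1.64 ± 0.23) rose, while Spi1 of myeloid cells (-3.60 ± 0.41) and Fli1 of endothelial and blood cells (-3.54 ± 0.39) fell along with the immune and endothelial markers. Of 4 other GATA and FOXA factors tested 3 rose, among them Foxa3 by 5.37 ± 0.49, and Foxa2, which held 0.0761 to 3.64 CPM in organoids and was listed at 0 in 9 of 10 tumors. Of 22 other epithelial transcription factors 9 rose and 4 fell, and Klf5 (2.404 ± 0.33), Cbfb (0.43 ± 0.06), Zfpm1 (0.88 ± 0.13) and Grhl2 (0.39 ± 0.07), which rose, had the smallest p. Of 8 luminal progenitor markers 5 rose and none fell, led by Aldh1a3 (4.15 ± 0.29) and Lif (2.99 ± 0.29).

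In tumors, Malat1 ASOs were compared with scASO. None of the 10 genes was called with ASO1, beside 0.00576% of all 17354 genes tested, nor with ASO2, beside 0%; at an unadjusted p under 0.05 the ASO1 comparison held 2 of the 10, Spdef and Stat5a, beside 8.45% of all genes. At that limit the ASO2 comparison held 0 of the 10, beside 5.14% of all genes, and both ASOs together 0, beside 5.86%. DESeq2 called none of the 10 either, with ASO1 or with ASO2. The ASO1 tumors were all below the scASO tumors for the same 2 genes, beside 9.39% of all genes all below.

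Spdef stood at 18.6, 5.34 and 19.0 CPM in ASO1 tumors and at 70.8, 10.2, 49.4 and 91.1 CPM in ASO2 tumors, against 45.3, 47.5 and 74.9 CPM in scASO tumors. The ASO1 tumors lay below every scASO tumor, and the ASO2 tumors on both sides of them. The log2 fold change was -1.94 ± 0.68 for ASO1, with a 95% interval from -3.27 to -0.61 and an adjusted p of 0.53, and -0.003 ± 0.61 for ASO2, with an interval from -1.201 to 1.196 (edgeR). Between the ASOs, ASO1 minus ASO2 was -1.94 ± 0.65, with an adjusted p of 0.49.

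Stat5a, the transcription factor downstream of the prolactin receptor, stood at 62.8, 24.1 and 60.2 CPM in ASO1 tumors and at 114, 82.0, 99.3 and 88.0 CPM in ASO2 tumors, against 105, 84.4 and 95.2 CPM in scASO tumors. ASO1 tumors lay below all others. The log2 fold change was -0.93 ± 0.31 for ASO1 (adjusted p of 0.53 by edgeR) and 0.03 ± 0.29 for ASO2, and without the lowest tumor, ASO1 replicate 2, the ASO1 estimate was -0.62 ± 0.19. Scaled to the 6 epithelial genes it was -0.50 ± 0.35, with the median of all genes at 0.48 in place of 0.06, and Spdef was -1.53 ± 0.57. Its near-identical neighbour Stat5b gave -0.88 ± 0.28 for ASO1. Reads with several alignments were not counted, so a split of reads between these 2 genes is uncertain; Stat5a took 40.0 to 49.2% of their summed reads in organoids and 44.8 to 53.5% in tumors. The Stat5a annotation also overlaps Stat3 on the opposite strand, which held 362, 93.2 and 314 CPM in ASO1 tumors against 496, 492 and 376 CPM in scASO tumors. The sources used here do not say whether counting used strand. It is therefore not known whether reads in the overlap of Stat5a and Stat3 were counted for 1 of them or left out as ambiguous.

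The tumor ASO1 replicate 2 stood apart within its group. It held 17.4 CPM of Gata3, against 119 and 161 CPM in the other ASO1 tumors and 151 to 196 CPM in scASO tumors, and it was the lowest of all 10 tumors for Gata3, Spdef, Stat5a, Esr1 and Prlr. The secretory target genes summed to 1607 CPM in this tumor, 8242 and 4470 CPM in the other ASO1 tumors, and 9052 to 10410 CPM in scASO tumors. Its general epithelial markers summed to 4261 CPM, within the range of the other tumors. The ASO1 tumors replicates 1 and 3 had the highest sums of basal and myoepithelial markers, 2484 and 4100 CPM, against 375 to 1500 CPM in scASO tumors. The ASO1 log2 fold changes over scASO were high for the contractile genes Acta2 (1.76), Myh11 (1.76), Mylk (1.59) and Cnn1 (1.67) and for Oxtr (1.87). They were smaller for Krt14 (0.51), Trp63 (0.08) and Krt5 (-0.19), and none of these genes was called. Endothelial markers summed to 83.5 to 134 CPM in ASO1 tumors, above the 31.7 to 70.7 CPM in ASO2 and 60.8 to 63.5 CPM in scASO tumors. Luminal progenitor markers summed to 539 to 700 CPM in ASO1 tumors, below the 718 to 1057 CPM in ASO2 and 767 to 1176 CPM in scASO tumors. The single markers did not move together, and none was called. The ASO1 log2 fold change over scASO was negative for Tspan8 (-1.54), Kit (-0.75), Cd14 (-0.51) and Itgb3 (-0.14). It was positive for Lif (1.12), Cyp24a1 (0.87), Aldh1a3 (0.605) and Cxcr4 (0.45). Among ASO2 tumors, adipocyte markers summed to 26.9 to 880 CPM, against 14.2 to 37.7 CPM in ASO1 and 19.5 to 22.5 CPM in scASO tumors. Fibroblast markers summed to 391 to 2365 CPM with ASO2, against 264 to 747 CPM with ASO1 and 361 to 553 CPM with scASO. Skeletal muscle markers were 19.6 to 1756 CPM with ASO2, against 25 to 52.2 CPM with ASO1 and 21.7 to 43.2 CPM with scASO. The part of these cells in the values of the 10 genes, Spdef and Stat5a among them, was not tested.

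For the remaining genes, the ASO1 and scASO tumors overlapped. Elf5 was 564, 372 and 283 CPM in ASO1 tumors and 363, 407, 500 and 488 CPM in ASO2 tumors, against 451, 481 and 484 CPM in scASO tumors. Its log2 fold changes were -0.20 ± 0.25 and -0.09 ± 0.23, with 95% intervals from -0.68 to 0.28 for ASO1 and from -0.54 to 0.36 for ASO2; with the epithelial scaling the ASO1 estimate turned to 0.30 ± 0.38. For Elf5 under TMM, a change of more than 0.68 on the log2 scale lay outside both intervals, but these are approximate and too narrow. With the replicate block the ASO1 interval for Elf5 reached -0.76. For Foxa1 the intervals spanned -1.90 to 2.54 for ASO1 and -1.89 to 2.27 for ASO2.

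The hormone receptor genes varied more within groups than between them. Esr1 was 17.1, 7.11 and 34.5 CPM in ASO1 tumors and 25.9, 10.9, 20.8 and 7.40 CPM in ASO2 tumors, against 15.1, 15.6 and 8.08 CPM in scASO tumors. Prlr was 124, 96.1 and 309 CPM in ASO1 tumors and 193, 111, 252 and 107 CPM in ASO2 tumors, against 238, 102 and 112 CPM in scASO tumors. The groups overlapped for each receptor, and the highest Esr1 and Pgr levels were in ASO1 and ASO2 tumors. The estimates were 0.62 ± 0.59 and 0.35 ± 0.56 for Esr1, 0.25 ± 0.51 and 0.15 ± 0.48 for Prlr, and 0.60 ± 0.89 and 0.67 ± 0.84 for Pgr, for ASO1 and ASO2 in each case. None of the genes in the surrounding pathway and marker lists was called in either tumor comparison. The 2 comparisons share the scASO tumors.

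**Figure D3:**
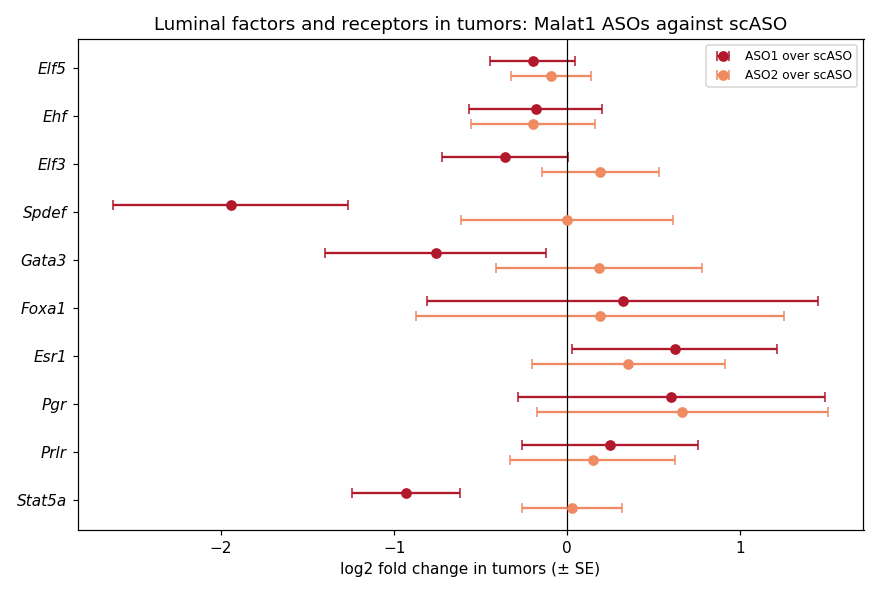
Log2 fold change of tumors with ASO1 (red) and ASO2 (orange) over scASO tumors, with standard errors, for the 10 genes. Spdef (-1.94) and Stat5a (-0.93) with ASO1 lie furthest from 0 relative to their errors, and no gene was called.

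Across the 10 tumors some of the genes varied together, given here as a description: both values of a pair come from the same library, and the tumors differ in treatment. Pearson's r of log2 CPM was 0.98 for Stat5a and Stat5b, 0.936 for Gata3 and Stat5a, 0.816 for Spdef and Stat5a, 0.805 for both Foxa1 with Prlr and Esr1 with Pgr, and 0.764 for Pgr with Prlr. Spearman's rho of the same 6 pairs was 0.891, 0.867, 0.697, 0.685, 0.855 and 0.891, in that order. Without the 2 tumors farthest from the median of the first gene, Gata3 with Stat5a dropped to 0.528, while Spdef with Stat5a stayed at 0.819 and Foxa1 with Prlr at 0.769. Among 13285 genes, the ones most like each member were Vps53 for Elf5 (0.922), Slc25a32 for Ehf (0.903), Zfp185 for Elf3 (0.934), Slc31a2 for Spdef (0.974), Fer1l4 for Gata3 (0.977) and Arhgap40 for Foxa1 (0.961). For the receptors they were Fli1 for Esr1 (0.98), Gm16485 for Pgr (0.97) and Tmem56 for Prlr (0.946).

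In organoids the main source of variation was the replicate number, which groups 1 library of each treatment. Libraries with the same number deviated together in 24 of 24 pairs. The median share of variance between numbers was 81.3% for the 10 genes and 70.7% for all genes, and that between treatments 5% and 8.3%. All 10 genes differed between numbers in an edgeR F-test over the 4 numbers, beside 81% of all 17126 genes.

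The 4 libraries numbered 4 were below all 12 others for Elf5, Foxa1, Esr1, Pgr, Prlr and Stat5a and above all others for Gata3. These are 7 of the 10 without overlap, beside 24.8% of all genes, and 6 all below, beside 12.6%. Foxa1 was 2.01 to 4.67 CPM in number 4 and 12.8 to 36.1 CPM in numbers 1 to 3. Esr1 was 2.55 to 3.56 CPM in number 4 and 5.17 to 11.6 CPM in the others, Pgr 0.0418 to 0.443 against 0.938 to 5.44 CPM, and Prlr 38.9 to 60.8 against 69.0 to 247 CPM. The receptors for estrogen, progesterone and prolactin and the pioneer factor Foxa1 were thus all low in the same cultures, while Gata3 was 162 to 197 CPM there and 99.1 to 148 CPM in the others. In number 4 the basal markers summed to 4359 to 7830 CPM and the luminal progenitor markers to 624 to 1220 CPM, against 1750 to 4684 and 1697 to 2660 CPM in numbers 1 to 3. Over all 16 organoid libraries the basal markers with the highest medians were Krt5 (1493 CPM) and Krt14 (1416 CPM), against 295 CPM for the contractile gene Acta2. Adipocyte markers summed to 81.6 to 124 CPM in number 4 and 11.8 to 20.3 CPM in the others. Of these markers, Fabp4 reached 70.9 CPM and Lipe 68.5 CPM over all 16 organoid libraries. The more restricted ones stayed low there, with highest levels of 1.04 (Plin1), 0.438 (Adipoq), 0.317 (Retn), 0.164 (Cidec), 0.087 (Cfd) and 0.0801 CPM (Lep). The part of any of these cells was not tested. Without the 4 libraries the same 5 genes were called lower in organoids than in tumors.

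**Figure D4:**
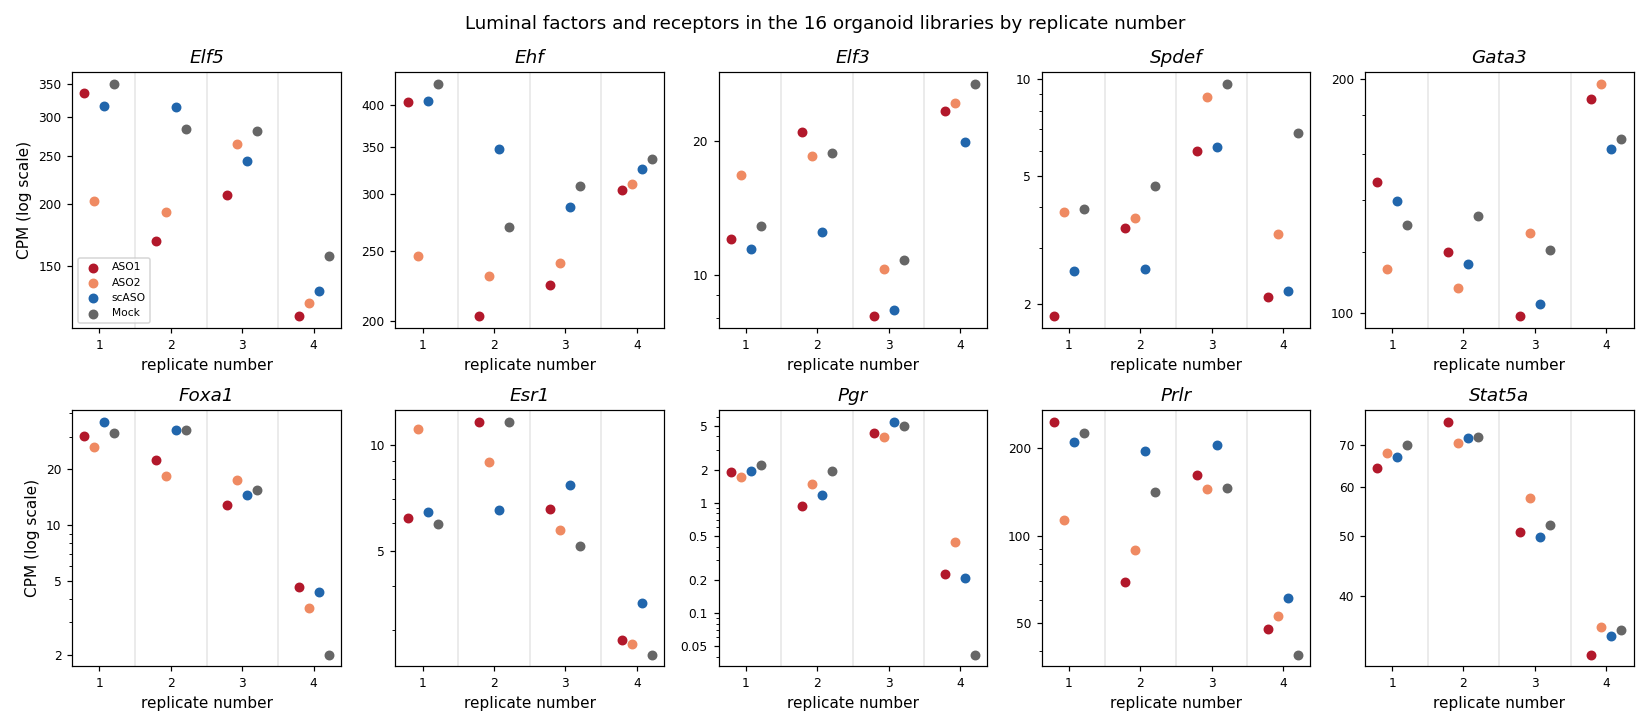
CPM (log scale) of the 10 genes in the 16 organoid libraries, by replicate number on the horizontal axis and coloured by treatment. Foxa1, Esr1, Pgr, Prlr, Stat5a and Elf5 are lowest in number 4, Gata3 is highest there, and Spdef is highest in number 3 (6.01 to 9.71 CPM).

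Malat1 ASOs in organoids were compared with scASO and with Mock. Without the number in the fit, none of the 10 genes was called in any of these comparisons, beside 0% of all genes in each, and the same held without the 2 libraries at odds with their labels. At an unadjusted p under 0.05 the counts were also 0 of the 10, beside 0.257% of all genes for ASO1 over scASO, 1.68% for ASO2 over scASO, 1.06% for both ASOs over scASO, 1.93% for ASO1 over Mock, 1.82% for ASO2 over Mock and 1.59% for scASO over Mock. With the number as a block, none of the 10 was called against scASO, beside 0% of all genes, with 1 of the 10 for ASO1 and 4 for ASO2 at an unadjusted p under 0.05, beside 7.16% and 20.7% of all genes. With the block, Spdef was lower than in Mock with ASO1, as 1 of the 10 beside 2.38% of all genes, and with scASO, as 1 of the 10 beside 0.747%. With ASO2 none was called, beside 1.82%.

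Spdef was 1.83, 3.44, 6.01 and 2.11 CPM with ASO1, 3.87, 3.70, 8.80 and 3.31 CPM with ASO2, and 2.54, 2.58, 6.18 and 2.196 CPM with scASO, against 3.95, 4.66, 9.71 and 6.82 CPM in Mock, for numbers 1 to 4. Within every number, each of the 3 oligonucleotides was below Mock, ASO2 in number 1 by only 0.03 on the log2 scale. The blocked log2 fold change over Mock was -0.99 ± 0.20 for ASO1 (adjusted p of 0.0198 by edgeR), -0.41 ± 0.20 for ASO2 (0.32) and -0.96 ± 0.20 for scASO (0.0491), all sharing the same Mock libraries. Leaving out each of the 16 libraries in turn kept the ASO1 call in 13 fits and the scASO call in 1. The ASO1 call was lost without ASO1 replicate 1, 3 or 4 (adjusted p up to 0.0997), and without the Mock replicate 4 its estimate was -0.74. Without the 2 libraries at odds with their labels, ASO1 gave -0.99 ± 0.19 (adjusted p of 0.0087) and scASO -0.89 ± 0.22 (0.0568). Spdef rested on 53 to 383 reads per organoid library.

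Elf5 and Ehf leaned the same way with both Malat1 ASOs without being called. Elf5 was 335, 168, 208 and 119 CPM with ASO1 and 203, 193, 264 and 126 CPM with ASO2, against 315, 315, 244 and 134 CPM with scASO and 350, 283, 281 and 157 CPM in Mock. Ehf was 404, 203, 224 and 304 CPM with ASO1 and 246, 231, 241 and 310 CPM with ASO2, against 405, 347, 288 and 326 CPM with scASO and 429, 271, 308 and 336 CPM in Mock. Both genes were below Mock in 4 of 4 numbers with each ASO. With ASO2 the largest difference was in number 1, at -0.79 for Elf5 and -0.80 for Ehf on the log2 scale. That ASO2 library held 1485 CPM of Malat1, as high as the controls. With single libraries left out, the blocked ASO2 estimates over Mock ran from -0.576 to -0.294 for Elf5 and from -0.454 to -0.24 for Ehf. The blocked estimates over Mock were -0.41 ± 0.16 and -0.43 ± 0.16 for Elf5 and -0.28 ± 0.14 and -0.38 ± 0.14 for Ehf, for ASO1 and ASO2, with adjusted p from 0.18 to 0.36 by edgeR. Without the 2 libraries at odds with their labels, ASO1 was called lower than Mock for Elf5 (-0.43 ± 0.10, adjusted p of 0.021) and Ehf (-0.29 ± 0.08, adjusted p of 0.0417) beside 6.69% of all genes, and ASO2 for neither.

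Set against scASO with the block, ASO1 gave -0.31 ± 0.14 for Ehf and -0.30 ± 0.16 for Elf5. Without scASO replicate 2 these were -0.21 ± 0.14 and -0.17 ± 0.15, and without both libraries at odds with their labels -0.20 ± 0.09 and -0.16 ± 0.11. ASO2 gave -0.41 ± 0.14 for Ehf and -0.33 ± 0.16 for Elf5. ASO2 also gave -0.67 ± 0.24 for Prlr, 0.42 ± 0.13 for Elf3 and 0.54 ± 0.20 for Spdef, each in the same direction in 4 of 4 numbers. None of these passed, with adjusted p of 0.16 or more by edgeR. Without the 2 libraries at odds with their labels the ASO2 estimate for Elf5 was -0.02 ± 0.12, that for Ehf -0.14 ± 0.10, that for Prlr -0.29 ± 0.22, that for Elf3 0.21 ± 0.12 and that for Spdef 0.38 ± 0.24. Stat5a was the most even of the 10 within numbers, with blocked differences of -0.06 ± 0.07 for ASO1 and 0.01 ± 0.07 for ASO2 over Mock, and 95% intervals within -0.19 to 0.14.

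Genes around them were counted against Mock with the block, with the 2 libraries at odds with their labels included. Among 4 other GATA and FOXA factors, Foxa2 rose by 2.46 ± 0.44 with ASO1 and 2.19 ± 0.44 with ASO2, while its scASO estimate of 1.59 ± 0.46 did not pass (adjusted p of 0.14 by edgeR). Among 14 other steroid receptors and coregulators, the mineralocorticoid receptor gene Nr3c2 fell with ASO1 (-1.09 ± 0.19) and ASO2 (-0.96 ± 0.19), and the membrane estrogen receptor gene Gper1 rose with both (0.94 ± 0.21 and 0.97 ± 0.21). Of 19 other ETS factors, Elk3 rose with all 3 oligonucleotides, by 0.57 ± 0.07 with ASO1, 0.47 ± 0.07 with ASO2 and 0.45 ± 0.07 with scASO, and Elf4 rose with ASO1 (0.59 ± 0.13). Of 22 other epithelial factors, Xbp1, a regulator of secretory capacity, fell with ASO1 (-0.66 ± 0.14), and Runx1 rose with ASO1 (0.35 ± 0.08) and scASO (0.42 ± 0.08). In the prolactin pathway list Erbb4 was the 1 of 14 called, lower with ASO1 (-1.70 ± 0.34), and of 11 hormone-responsive genes Areg (1.198 ± 0.24) and Igfbp4 (0.71 ± 0.15) rose with ASO1. The basal keratin genes Krt14 and Krt5 rose with ASO1 (0.80 ± 0.13 and 0.71 ± 0.13) and with ASO2 (0.80 ± 0.13 for each), as 2 of 8 basal markers, and Lif rose with ASO1 as 1 of 8 luminal progenitor markers (1.15 ± 0.18). With ASO1 the adipocyte marker Fabp4 rose (1.67 ± 0.37), and with ASO2 the leukocyte markers Ptprc (-1.68 ± 0.24) and Adgre1 (-1.36 ± 0.29) fell, 2 of 8; the part of such cells was not tested. None of the 10 secretory target genes that passed the filter was called with any of the 3 oligonucleotides. The response to both ASOs over scASO did not pass as different between organoids and tumors for any of the 10 genes, beside 0% of all genes; at an unadjusted p under 0.05 it was 0 of the 10, beside 4.45%. For Spdef the difference of the responses, organoid minus tumor, was 1.27 ± 0.70.

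**Figure D5:**
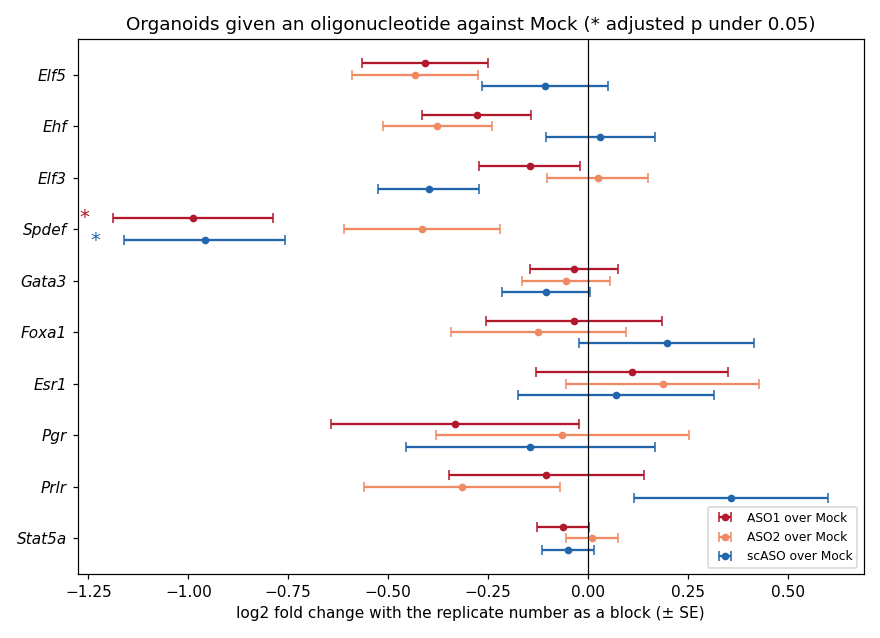
Log2 fold change over Mock in organoids with ASO1 (red), ASO2 (orange) and scASO (blue), with standard errors, fitted with the replicate number as a block; stars mark adjusted p under 0.05. Spdef is called for ASO1 (-0.99) and scASO (-0.96), and Elf5 and Ehf lie below 0 for ASO1 and ASO2 without being called.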

How the data were processed

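The authors deposited, for each library, a raw count of reads for every gene. The mm9 build and the tools STAR, HTSeq, CASAVA, FastQC and DESeq2 are named by the submitters' processing notes, without a version; the strand setting and annotation are likewise not stated there. Library sizes left out the 5 closing lines of unassigned reads; reads with several alignments equalled 21.2 to 32.7% of assigned reads in organoids and 24.1 to 44.0% in tumors.

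Symbols and exon lengths came from GENCODE M21 (GRCm38), which matched 32620 of 37310 IDs. Groups and replicate numbers came from the sample titles. Tumors, organoids and both together were fitted with edgeR 4.0.16 in R 4.3.3: TMM, filterByExpr (minimum count 10, total 15), the quasi-likelihood F-test, and Benjamini-Hochberg adjustment over all genes tested at 0.05. Each standard error is the size of the log2 fold change over the square root of its F. The 95% intervals are approximate, as they use the normal distribution, and are too narrow for so few libraries. CPM used TMM sizes over all 26 libraries; log2 CPM a prior count of 2. The scripts were tested on simulated data.

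Same-numbered organoid libraries correlated in their deviations from group means at 0.469 to 0.934, over 0.1 in 24 of 24 pairs, so there the number was also fitted as a block and the values are given beside the results; in tumors 2 of 9 pairs passed 0.1, and the block served only as an alternative. Alternatives were DESeq2 1.42.0, limma 3.58.1 (voom with quality weights), RLE normalization, scaling to 6 epithelial genes, no filter, the block, the spread of the compared groups alone, and leaving out libraries. Added after seeing the data were the F-test over replicate numbers, fits without the number 4 or the Mock libraries, organoid libraries summed by number, and every fit that joined the block with left-out libraries. All 10 genes are named. Of each other list, at most 4 called genes with the smallest p are named, apart from those marked as named after their values were seen. Against Mock all called genes of the lists are named. The genes and lists were chosen with earlier results of these data known.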

Additional observations from a re-analysis of the deposited data

Results flagged for a closer look

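In 50 groups of 4 libraries, 3 held a library far from the others on the log2 CPM scale, where chance gives about 1 in 20. Prlr was lowest in the organoid scASO replicate 4, at 60.8 CPM against 196 to 210 CPM in the other 3, a gap of 0.947 of the group's range. Spdef was highest in organoid replicate 3 with ASO2, at 8.80 CPM against 3.31 to 3.87 CPM (0.842 of the range), and with scASO, at 6.18 CPM against 2.196 to 2.582 CPM (0.845). These libraries share numbers 3 and 4, in which the same genes also stood apart with the other treatments.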

How the results depend on the processing

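For organoids against tumors, Spdef, Ehf, Elf5 and Esr1 were called lower in all 35 alternatives and Elf3 in 34, losing its call with organoid libraries summed by number; the number of the 10 called was 5 to 7 when single libraries were left out (54.3 to 59.3% of all genes called), 7 with DESeq2 (60.2%), 6 with limma voom (67%) and 10 with the epithelial scaling (69.9%). Stat5a was called in 13 alternatives, Foxa1 in 10, Pgr in 2, Prlr in 1 and Gata3 in 1, the last ranging from -0.70 to 0.06. In tumors no alternative called any of the 10, including the block on replicate number, with which Spdef was -2.25 and Stat5a -1.03 for ASO1. In organoids, limma voom with quality weights called 3 for ASO2 against scASO (Elf5 -0.62, Ehf -0.60, Prlr -0.99; 3974 genes called in all, against 0 with edgeR) and 1 for both ASOs (Ehf -0.49; 1029 genes). For ASO1 against Mock the replicate block called 1 (407 genes), and 3 without the 2 libraries at odds with their labels (1159 genes); for scASO against Mock it called 1 (128 genes). With the block and single libraries left out, these counts ranged from 0 to 1. The cause of these shifts was not tested. Of 3839 uncalled values of the 10 genes, 307 changed sign under an alternative while uncalled. The spread of the compared groups alone was not run for both ASOs in tumors, where it is the same fit. Pgr rested on 1 to 246 reads per organoid library, and the tumor intervals of Foxa1 spanned more than 4 log2 units.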
